A study of Mus musculus with 14 samples.

Results

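Iron handling in the P14 brain was followed through 10 genes of iron transport and storage, taken by name from a table of 56748 genes. The members were *Trf*, *Tfrc*, *Slc11a2*, *Slc40a1*, *Cp*, *Slc25a37*, *Fth1*, *Ftl1*, *Aco1* and *Ireb2*. Each was measured in 14 brain libraries, and all 10 passed the filter on low counts that left 18170 genes to test. They were chosen by name, with no threshold on their values.

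The libraries were RNA-seq of total RNA from the brains of C57BL6/J pups at postnatal day 14, cut along the midline so that 1 side was used. There were 8 *Rik* null pups, labelled RIK KO, and 6 WT pups, with 1 library per pup. *Rik* null mice are homozygous for a small spontaneous deletion in the first intron of *2310061I04Rik* (*Rik*), which arose in an embryonic stem cell clone made for a floxed *Traf7* allele and was later separated from that allele by breeding to C57BL/6. The deletion is present in all cells, WT pups were littermates, and no agent was given to either group.

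Libraries held 15183130 to 28012811 counts in *Rik* null brains and 18102343 to 30993890 counts in WT brains. *Rik* itself was at 7.44 to 10.6 CPM (counts scaled to the size of the library) in *Rik* null brains and 68.9 to 79.4 CPM in WT brains, so every library matched its labelled genotype. The labels gave 7 male pups and 1 female pup among *Rik* null brains, and 2 male and 4 female pups among WT brains. WT 1, labelled male, had *Xist* at 436 CPM, and WT 6, labelled female, had *Xist* at 0.162 CPM and Y-linked genes at 157 CPM in sum, so the labelled sex of both went against their RNA. *Rik* null 5 and *Rik* null 8 held *Gh*, a pituitary transcript, at 44.5 and 185 CPM, against at most 0.961 CPM in any WT library. By average linkage over all tested genes the libraries fell into a set of 8 (*Rik* null 1, 6, 7 and 8 with WT 1, 4, 5 and 6) and a set of 6 (*Rik* null 2, 3, 4 and 5 with WT 2 and 3), which is no batch named in the labels. The sets were drawn from the same counts that were tested, so p-values of fits with library set as a block can be too small.

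Cells take up iron mainly as transferrin bound to the transferrin receptor, move it out of the endosome through a divalent metal transporter, and then use it in mitochondria, store it in ferritin or export it through ferroportin. A pair of cytosolic sensors, the iron regulatory proteins encoded by *Aco1* and *Ireb2*, bind a short RNA hairpin, the iron-responsive element. Bound near the 5′ end of ferritin or ferroportin mRNA they hold back translation, and bound in the 3′ UTR of transferrin receptor mRNA they protect that mRNA from decay. In the brain, iron enters across the capillary endothelium, and oligodendrocytes, the cells that make myelin, are rich in iron, ferritin and transferrin.

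The elements are shown because they are what the sensors bind in the mRNAs measured here. The UTRs of 21877 protein-coding genes of GENCODE M21 (GRCm38) were searched on the transcript strand for a C, 5 bases, the loop CAGTG followed by A, C or T, and 5 bases that pair with the first 5, with at least 3 of 5 pairs in the stem below the C. Such a hairpin was found in 32 genes (0.146%), and 4 of the 10 members were among them. It lay in the 5′ UTR of *Fth1* (chr19:9982733-9982759, + strand), *Ftl1* (chr7:45459780-45459806, − strand) and *Slc40a1* (chr1:45925466-45925492, − strand). In *Tfrc* there were 4 such hairpins, all in the 3′ UTR on chromosome 16, + strand, starting at 32631220, 32631599, 32631664 and 32631711, each 27 bases long. The other 6 members had no match, which says only that no hairpin of this exact form is in their annotated UTRs. An element with an unpaired or extra base in the upper stem would be missed by this search. Loops are in capitals.
Fth1: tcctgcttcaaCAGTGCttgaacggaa
Ftl1: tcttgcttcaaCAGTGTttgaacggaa
Slc40a1: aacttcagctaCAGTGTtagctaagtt
Tfrc hairpin 1: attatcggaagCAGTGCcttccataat
Tfrc hairpin 2: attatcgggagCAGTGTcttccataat
Tfrc hairpin 3: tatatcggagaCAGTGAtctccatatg
Tfrc hairpin 4: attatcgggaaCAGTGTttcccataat

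To find which step of iron handling differed between the genotypes, all 18170 genes were fitted in edgeR and tested by quasi-likelihood, with Benjamini-Hochberg adjustment and a call at an adjusted p of at most 0.05. Of the 10 members, 1 was called, *Tfrc*, which was lower in *Rik* null brains. Over all genes 3.31% were called changed, 2.2% lower and 1.12% higher. No member was called higher by edgeR, DESeq2 or limma, and 1 (*Aco1*) was higher at an unadjusted p under 0.05. In total 3 members had an unadjusted p under 0.05, 2 of them lower (*Tfrc* and *Slc11a2*) and 1 higher, beside 18.6% of all genes, 10.3% lower and 8.34% higher. The log2 fold change was below 0 for 6 of 10 members, beside 8990 of the 18170 genes tested. The members' median log2 fold change was -0.06, beside 0.00 for all genes. No member reached an absolute log2 fold change of 1, which 0.11% of genes did together with the call.

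**Figure D1:**
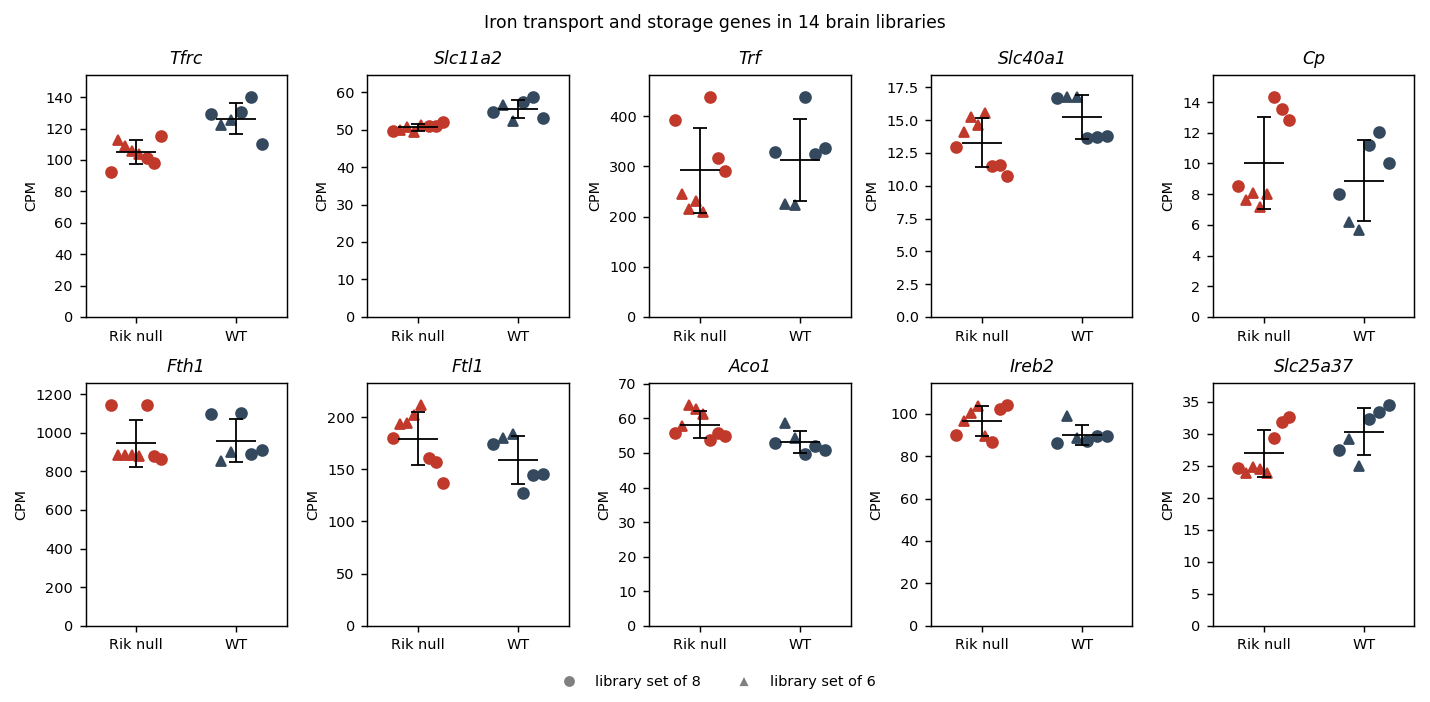
CPM of each of the 10 genes in each library (y axes start at 0), with *Rik* null brains left of WT brains; circles are the library set of 8, triangles the set of 6, and bars the mean and SD. The means of *Tfrc* (105 and 126 CPM) and *Slc11a2* (50.6 and 55.5 CPM) are lower in *Rik* null than in WT brains, while *Trf* and *Ftl1* are split by library set within both genotypes.

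*Tfrc* (ENSMUSG00000022797) encodes the transferrin receptor, through which iron-loaded transferrin is taken up. It was at 92.6 CPM at the lowest, 105 at the median and 115 at the highest in 8 *Rik* null brains, against 110, 127 and 140 CPM in 6 WT brains. The genotypes overlapped only through *Rik* null 2 and *Rik* null 8, which were above the lowest WT library, WT 6. *Tfrc* averaged 105 ± 7.56 CPM in *Rik* null brains and 126 ± 9.99 CPM in WT brains (SD), a log2 fold change of -0.27 (SE 0.0563, 95% interval -0.39 to -0.15), or 0.831-fold (adjusted p = 0.0156, edgeR quasi-likelihood test). It ranked 215 by p among the genes tested. Its log2 fold change kept between -0.30 and -0.23 with each library left out in turn, with adjusted p of 0.0113 to 0.0457. With labelled sex as a term the log2 fold change was the same, -0.27, but the edgeR adjusted p was 0.0852. Without WT 1 and WT 6 it was -0.30 (edgeR adjusted p = 0.0349), and without *Rik* null 5 and 8 it was -0.29 (edgeR adjusted p = 0.0232). By RNA, WT 2 and WT 6 were the male WT brains, with the lowest WT levels of *Tfrc* (122 and 110 CPM). The female WT brains by RNA, WT 1, 3, 4 and 5, had 125 to 140 CPM. *Rik* null 5, the only female *Rik* null brain, had 104 CPM, within the range of the male ones (92.6 to 115 CPM). Sex was thus mixed with genotype, and as its label is wrong for WT 1 and WT 6, the part of sex was not tested. Over 30 alternatives the adjusted p ran between 0.00139 and 0.343, and the call was kept in 27.

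The fall in *Tfrc* was seen in both library sets. In the set of 8 it averaged 102 CPM in *Rik* null brains and 127 CPM in WT brains, and in the set of 6 it averaged 108 CPM in *Rik* null brains and 124 CPM in WT brains. Tested within the set of 8 alone, the log2 fold change was -0.32 (edgeR adjusted p = 0.134), and within the set of 6 alone it was -0.19 (edgeR adjusted p = 0.0466). The difference between the sets in the effect of genotype was 0.12 on the log2 scale (SE 0.109, unadjusted p = 0.276, edgeR interaction term). No gene of 18170 passed that interaction test, also not with at least 10 counts in every library. Of these genes 439 had an unadjusted p under 0.05, and none of the 439 was a member. With only 2 WT libraries in the set of 6 the test has little power, so it does not show that the sets agree.

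Brain endothelium is a main site of *Tfrc* in the brain, and its markers moved the same way. For all 10 of 10 endothelial markers the mean was below that of WT brains, with a median log2 fold change of -0.30, and 1 of them, *Cdh5*, was called (log2 fold change -0.32, edgeR adjusted p = 0.0196). Their summed level was 264 to 356 CPM (median 302) in *Rik* null brains and 316 to 423 CPM (median 373) in WT brains, and none of the markers was at 0 in all libraries. The CPM of *Tfrc* over that sum was 0.284 to 0.402 (median 0.338) in *Rik* null brains and 0.266 to 0.397 (median 0.351) in WT brains, so the ratio overlapped over nearly its whole range. The spread of the ratio also holds the spread of the sum within a genotype. *Rik* null 6 and *Rik* null 4 had the highest and lowest *Rik* null sums (356 and 264 CPM), with *Tfrc* at 101 and 106 CPM. For WT these were WT 4 and WT 3 (423 and 316 CPM), with *Tfrc* at 130 and 125 CPM. In each genotype the former is in the set of 8 and the latter in the set of 6. The part of the endothelial markers in the *Tfrc* result was not tested, and in brain tissue fewer cells of a type and less RNA per cell cannot be told apart. Erythroid markers, another known site of high *Tfrc*, summed to 129 to 233 CPM in *Rik* null brains and 109 to 223 CPM in WT brains, with 0 of 6 tested called and none with an unadjusted p under 0.05.

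**Figure D2:**
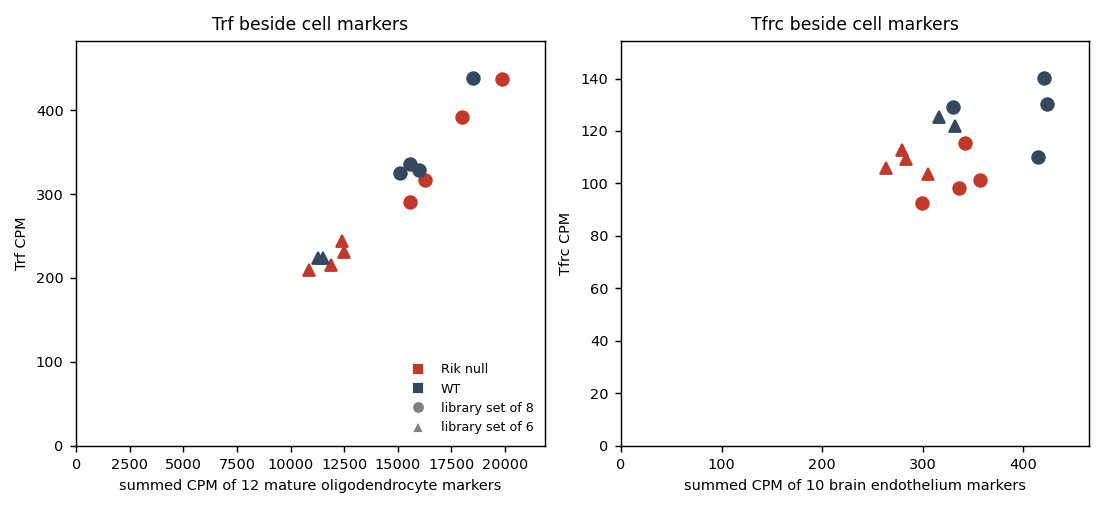
CPM of *Trf* against the summed CPM of 12 mature oligodendrocyte markers (left) and of *Tfrc* against the summed CPM of 10 brain endothelium markers (right), 1 point per library; red is *Rik* null and blue is WT, circles are the library set of 8 and triangles the set of 6. *Trf* follows the oligodendrocyte sum with both genotypes mixed, and for *Tfrc* the endothelial sums of the genotypes overlap (264 to 356 CPM in *Rik* null brains, 316 to 423 CPM in WT brains) and most *Rik* null points lie below the WT points.

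*Slc11a2* (ENSMUSG00000023030) encodes DMT1, the transporter that carries ferrous iron out of the endosome. Its levels were 49.5, 50.7 and 52.0 CPM (lowest, median, highest) in *Rik* null brains, against 52.3, 55.6 and 58.8 CPM in WT brains. It was the only member whose genotypes did not overlap, a property of 1.74% of all genes, and the gap between them was narrow. It averaged 50.6 ± 0.861 CPM in *Rik* null brains and 55.5 ± 2.50 CPM in WT brains (SD), 0.911-fold (log2 fold change -0.13, SE 0.0369). The edgeR adjusted p was 0.0562, so it was not called. The adjusted p was 0.0237 in DESeq2 and 0.0338 with library set as a block in edgeR, within a range of 0.0237 to 0.471 over 30 alternatives of which 4 gave a call. Levels of *Slc11a2* and *Tfrc* went together across the 14 libraries, with Pearson's r of 0.838 on log2 CPM, a description over libraries that differ in genotype and set.

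*Trf* (ENSMUSG00000032554) encodes transferrin, the iron carrier, which in the brain is made mainly by oligodendrocytes and the choroid plexus. Its levels were 210, 267 and 438 CPM (lowest, median, highest) in *Rik* null brains, against 224, 327 and 439 CPM in WT brains. The genotypes overlapped over almost their whole range, and the log2 fold change was -0.10 (SE 0.179, 95% interval -0.48 to 0.28, edgeR adjusted p = 0.806). The spread followed the library sets: the set of 8 held 290 to 439 CPM and the set of 6 held 210 to 245 CPM. Within the sets *Trf* averaged 359 CPM in *Rik* null and 357 CPM in WT brains of the set of 8, and 225 CPM in *Rik* null and 224 CPM in WT brains of the set of 6.

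The summed level of 12 mature oligodendrocyte markers, such as *Mbp*, separated the same libraries, at 15123 to 19866 CPM in the set of 8 and 10852 to 12500 CPM in the set of 6. By genotype that sum was 10852 to 19866 CPM in *Rik* null brains and 11256 to 18515 CPM in WT brains, with 0 of 12 markers called and 0 with an unadjusted p under 0.05. *Trf* over this sum was 0.0181 to 0.0220 in *Rik* null brains and 0.0195 to 0.0237 in WT brains. The 3 genes whose log2 CPM was most like *Trf* among 15815 genes were *Fa2h*, *Itgb4* and *Plekhb1* (Pearson's r 0.988, 0.987 and 0.987 over 14 libraries). *Fa2h* encodes an enzyme of myelin lipid synthesis.

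*Slc40a1* (ENSMUSG00000025993) encodes ferroportin, the iron exporter. Its levels were 10.7, 13.5 and 15.6 CPM (lowest, median, highest) in *Rik* null brains, against 13.6, 15.2 and 16.8 CPM in WT brains. Over all libraries the genotypes overlapped, and the log2 fold change of -0.19 (SE 0.0934) was not called (edgeR adjusted p = 0.284). Within each set they did not overlap, as was also so for *Slc11a2*. Of all genes 7.36% did not overlap within the set of 8, 27% within the set of 6, which has 2 WT libraries, and 3.87% in the same direction within both; of the members these were 3, 6 and 2. The set of 8 had 10.7 to 13.0 CPM in *Rik* null brains and 13.6 to 16.7 CPM in WT brains, and the set of 6 had 14.1 to 15.6 CPM in *Rik* null brains and 16.77 to 16.80 CPM in WT brains. With library set as a block the log2 fold change was -0.25 (SE 0.0626, edgeR adjusted p = 0.0183), within a range of 0.0183 to 0.50 over the alternatives, 2 of which gave a call. As the sets were drawn from these same counts, the p-value with them as a block can be too small.

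*Cp* (ENSMUSG00000003617) encodes ceruloplasmin, the copper ferroxidase that oxidises exported iron so that transferrin can bind it. Its levels were 7.15, 8.29 and 14.4 CPM (lowest, median, highest) in *Rik* null brains, against 5.68, 9.02 and 12.1 CPM in WT brains. The genotypes overlapped widely, with a log2 fold change of 0.16 (SE 0.198, 95% interval -0.26 to 0.57, edgeR adjusted p = 0.717). *Cp* had the fewest counts of the members, 104 to 364 per library. The gene *Hps3* overlaps it on the other strand and had 217% of its counts; as it is not stated that counting used strand, reads of the 2 genes cannot be told apart where they overlap.

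*Slc25a37* (ENSMUSG00000034248) encodes mitoferrin-1, which carries iron into the mitochondrial matrix. Its levels were 23.8, 24.7 and 32.6 CPM (lowest, median, highest) in *Rik* null brains, against 25.0, 30.7 and 34.4 CPM in WT brains. Among *Rik* null brains, libraries 6, 7 and 8 had 29.2 to 32.6 CPM and the other 5 had 23.8 to 24.8 CPM. Its genotype difference on the log2 scale was -0.17 (SE 0.0909, 95% interval -0.36 to 0.02, edgeR adjusted p = 0.324). Counts of mitochondrially encoded genes took 2.08% to 2.77% of each library in *Rik* null brains and 3.09% to 4.01% in WT brains, and their relation to *Slc25a37* was not tested.

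**Figure D3:**
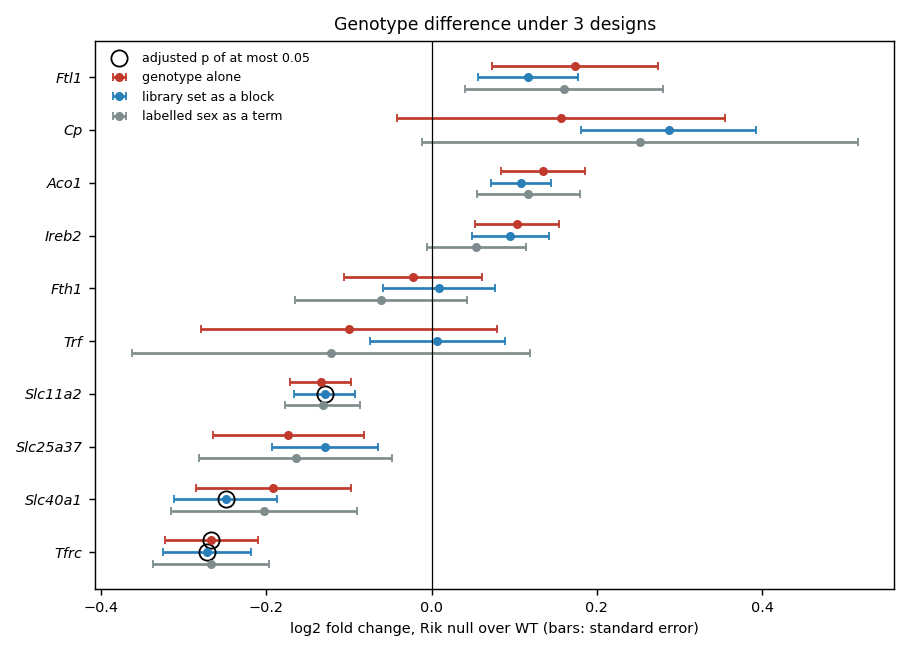
Log2 fold change of *Rik* null over WT brains (x axis) with its standard error for each gene, in edgeR fits with genotype alone (red), with library set as a block (blue) and with labelled sex as a term (grey); rings mark an adjusted p of at most 0.05. *Tfrc* is at -0.27 in all 3 fits and ringed in 2, and *Slc40a1* and *Slc11a2* are ringed with library set as a block, a term drawn from the same counts.

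*Fth1* and *Ftl1* encode the heavy and light chains of ferritin, the shell in which iron is stored. *Fth1* (ENSMUSG00000024661) had 867, 885 and 1143 CPM (lowest, median, highest) in *Rik* null brains, against 856, 906 and 1104 CPM in WT brains. Its libraries fell into a high and a low cluster in both genotypes. *Rik* null 1 and 6 (1143 and 1142 CPM) and WT 1 and 4 (1099 and 1104 CPM) were high, and the nearest of the other 10 libraries was 188 CPM lower. For *Fth1* the log2 fold change was -0.02 (SE 0.0838, 95% interval -0.20 to 0.15, edgeR adjusted p = 0.916).

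*Ftl1* (ENSMUSG00000050708) had 137, 187 and 211 CPM (lowest, median, highest) in *Rik* null brains, against 127, 160 and 184 CPM in WT brains. The log2 fold change was 0.17 (SE 0.10, 95% interval -0.04 to 0.39, edgeR adjusted p = 0.373), and the genotypes overlapped. The set of 6 held the high values, 180.18 to 211 CPM, and the set of 8 the low ones, 127 to 180.31 CPM. This was the reverse of *Trf*, but the sets overlapped slightly for *Ftl1*. Per unit of length, *Fth1* was 1.61 to 2.75 times *Ftl1* (median 1.97) in *Rik* null brains and 1.83 to 3.35 times (median 2.40) in WT brains on the FPKM scale. Ferritin has processed pseudogenes whose reads can be shared with the parent gene. The one with enough counts to test, *Ftl1-ps1*, carries the same hairpin as *Ftl1* and had 1104 counts over all libraries, beside 53704 for *Ftl1*.

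Both sensor genes had a higher mean in *Rik* null brains, and neither passed the threshold. *Aco1* (ENSMUSG00000028405), which encodes iron regulatory protein 1, a cytosolic aconitase when it holds an iron-sulphur cluster, had 53.8, 56.9 and 63.8 CPM (lowest, median, highest) in *Rik* null brains, against 49.7, 52.5 and 58.7 CPM in WT brains. The log2 fold change was 0.14 (SE 0.0508, 95% interval 0.03 to 0.24), with an edgeR adjusted p of 0.157, and it was positive in all 30 alternatives with no call in any. In the set of 8, *Rik* null brains (53.8 to 55.9 CPM) were all above WT brains (49.7 to 53.0 CPM), and in the set of 6 they overlapped (57.9 to 63.8 CPM in *Rik* null brains, 54.2 to 58.7 CPM in WT brains).

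*Ireb2* (ENSMUSG00000032293) encodes iron regulatory protein 2, which is degraded when iron is plentiful. It had 86.5, 98.6 and 104 CPM (lowest, median, highest) in *Rik* null brains, against 86.3, 89.0 and 99.0 CPM in WT brains. Of the WT libraries, WT 2 stood at 99.0 CPM and the other 5 at 86.3 to 89.7 CPM, while *Rik* null brains were spread over the whole range. On the log2 scale *Ireb2* differed by 0.10 (SE 0.0506, 95% interval -0.003 to 0.21, edgeR adjusted p = 0.286).

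Compared between genes, which needs a value per length, ferritin and transferrin mRNA led. *Fth1* averaged 272 FPKM (counts scaled to library size and gene length) over the 14 libraries, *Ftl1* 126 and *Trf* 90.0 FPKM. *Tfrc* averaged 18.3, *Aco1* 12.4, *Ireb2* 9.82, *Slc11a2* 8.23 and *Slc25a37* 4.67 FPKM, and *Slc40a1* and *Cp* were lowest at 1.56 and 0.988 FPKM. Neighbours in this order were apart in all 14 libraries except *Ftl1* above *Trf* in 12 and *Slc40a1* above *Cp* in 11. The ranges of FPKM over libraries overlapped for those pairs and for *Ireb2* and *Slc11a2*.

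**Figure D4:**
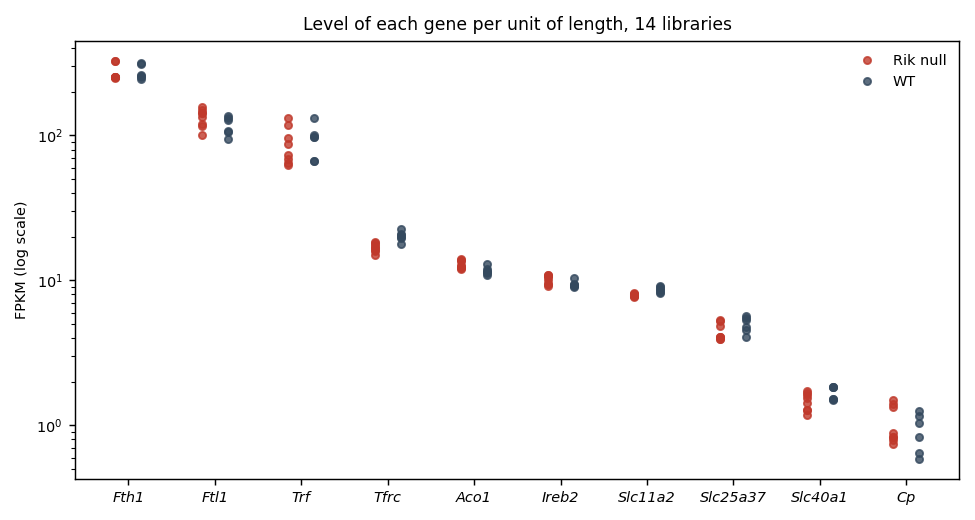
FPKM of each gene in each library on a log axis, in order of the mean, with *Rik* null brains (red) left of WT brains (blue) for each gene. *Fth1*, *Ftl1* and *Trf* lie above all others, and *Slc40a1* and *Cp* lie near 1 FPKM.

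Among themselves the members did not move as 1 group over the 14 libraries. On log2 CPM the strongest relations were *Ftl1* with *Slc25a37* (Pearson's r -0.911), *Slc40a1* with *Cp* (-0.865), *Tfrc* with *Slc11a2* (0.838), *Ftl1* with *Aco1* (0.825) and *Trf* with *Fth1* (0.793). The libraries differ in depth, library set and genotype, so these are descriptions. The gene most like *Tfrc* was *BC022960* (0.943), followed by *Stxbp2* (0.911) and *Naa40* (0.897). For *Ftl1* they were *Ppp2r1a* (0.979), *Cndp2* (0.969) and *Rps2* (0.968). For *Fth1* they were *Tmem125*, *Qdpr* and *Ldhb* (0.946, 0.945 and 0.941).

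For the smaller members the best likeness was of the same size. *Slc11a2* was most like *AI480526*, *Arhgef1* and *Ggnbp2* (Pearson's r 0.911, 0.909 and 0.905), and *Slc40a1* like *Eif2b1*, *Kat2a* and *Fndc4* (0.952, 0.950 and 0.949). *Cp* was most like *Slc24a4*, *C4b* and *Aak1* (0.970, 0.967 and 0.967), and *Slc25a37* like *Ptprb*, *Chka* and *Scaf4* (0.973, 0.968 and 0.967). *Aco1* was most like *Pdzrn3*, *Ptp4a2* and *Rnf14* (0.965, 0.953 and 0.937), and *Ireb2* like *Fgd4*, *Alcam* and *Tom1l1* (0.932, 0.926 and 0.901).

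The rest of the iron pathway was read from 6 further lists with 89 genes in the table, not all of which were tested. Of these genes 4 were called higher and 4 lower in *Rik* null brains. Over all genes tested 1.12% were called higher and 2.2% lower. Among 18 tested genes of other uptake and export, 0 were higher and 1 was lower, with a median log2 fold change of 0.01. The gene that fell, *Slc25a28*, encodes mitoferrin-2, a close relative of *Slc25a37*, and had 34.5 to 39.3 CPM (median 36.8) in *Rik* null brains against 40.0 to 43.8 CPM (median 41.7) in WT brains (log2 fold change -0.17, SE 0.0425, edgeR adjusted p = 0.0376). The genotypes did not overlap for it.

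Among 7 tested genes of other storage and cytosolic handling, 1 was higher and 1 lower, and the median was 0.05. *Ncoa4*, the receptor that brings ferritin to the lysosome so that its iron is released, rose, with 52.1 to 65.1 CPM (median 58.7) in *Rik* null brains against 45.8 to 51.4 CPM (median 49.6) in WT brains (log2 fold change 0.27, SE 0.0490, edgeR adjusted p = 0.00589). *Pcbp2*, a cytosolic iron chaperone and RNA-binding protein, fell, with 136 to 156 CPM (median 151) in *Rik* null brains against 160 to 173 CPM (median 166) in WT brains (log2 fold change -0.15, SE 0.0376, edgeR adjusted p = 0.0398). Neither gene overlapped between the genotypes.

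Among 7 tested genes of systemic control by hepcidin, 3 were higher and 0 lower, with a median log2 fold change of 0.24. The hormone genes *Hamp* and *Hamp2* had too few counts to be tested. The 3 that rose act in bone morphogenetic protein signalling in many tissues: the receptor *Bmpr1a* (log2 fold change 0.24, edgeR adjusted p = 0.00453), its signal transducer *Smad4* (0.24, adjusted p = 0.0148) and the co-receptor partner *Neo1* (0.27, adjusted p = 0.0293). *Bmpr1a* had 56.0 to 64.4 CPM in *Rik* null brains and 47.0 to 53.7 CPM in WT brains, *Smad4* had 42.1 to 48.7 CPM in *Rik* null brains and 34.6 to 41.3 CPM in WT brains, and both were without overlap. *Acvr1*, another bone morphogenetic protein receptor of this list, named after its values were seen, had 25.8 to 30.6 CPM (28.1 on average) in *Rik* null brains and 30.6 to 32.2 CPM (31.4 on average) in WT brains and was not called (log2 fold change -0.16, edgeR adjusted p = 0.0647).

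Of 23 tested genes of iron-sulphur cluster assembly, 1 fell: *Ndor1*, which passes electrons to the cytosolic assembly machinery, had 7.07 to 8.79 CPM (median 8.11) in *Rik* null brains and 8.49 to 10.9 CPM (median 10.3) in WT brains (log2 fold change -0.32, edgeR adjusted p = 0.0295). Of 17 tested genes of haem synthesis and breakdown, 1 fell: *Ppox*, the enzyme of the last but one step of haem synthesis, averaged 25.4 ± 0.959 CPM in *Rik* null brains and 29.5 ± 1.58 CPM in WT brains (log2 fold change -0.22, edgeR adjusted p = 0.0153). Both overlapped between the genotypes. Of 7 other mRNAs described with an iron-responsive element, 0 were called, and 2 had an unadjusted p under 0.05. With labelled sex as a term the counts over these lists were 1 higher and 0 lower, and without WT 1 and WT 6 they were 2 higher and 1 lower.

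**Figure D5:**
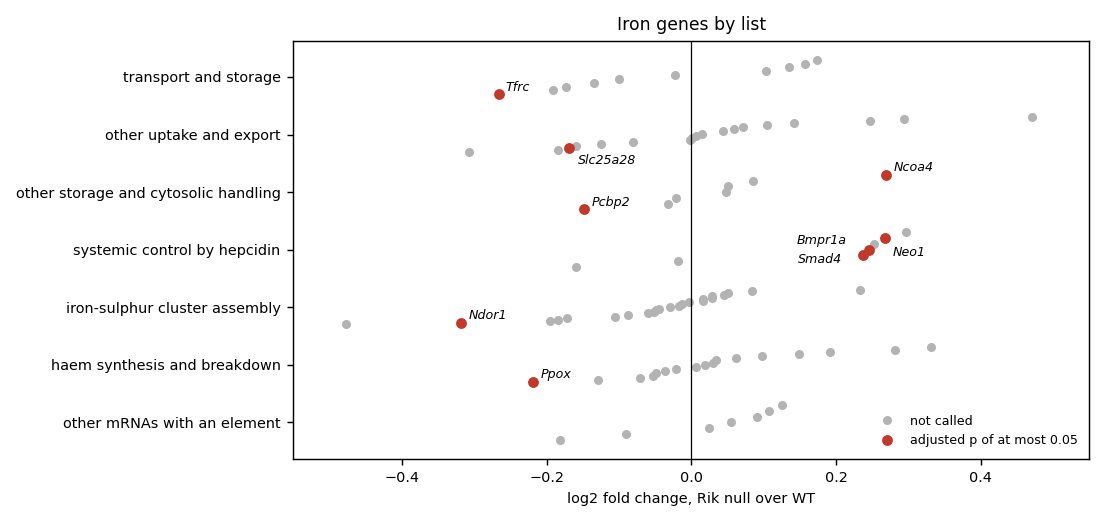
Log2 fold change of *Rik* null over WT brains (x axis) for each tested gene of 7 iron lists (rows; points are spread within a row by size of the change only to keep them apart). Red points with names passed an adjusted p of 0.05: *Tfrc* among the 10 transport and storage genes, and 8 genes of the other lists.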

How the data were processed

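The deposited table held, for each of 14 libraries, whole-number counts per gene that the authors had not normalized and FPKM values scaled by the authors to gene length and library size. Its group means, log2 fold changes and p-values are the authors' own comparison and were not used. RNA was extracted with a lipid tissue kit, and libraries, sequencing and standard analysis were made by a service company. For aligner, counting program, strandedness and annotation release nothing was given in the sources used here. The labels name mm10, but gene positions in the table are not those of GRCm38, so coordinates of hairpins come from GENCODE M21 (GRCm38) alone.

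Counts were tested in R 4.3.3 with edgeR 4.0.16 (filter by genotype, TMM, quasi-likelihood test, genotype as the only term), adjusted over 18170 genes. CPM used TMM-scaled library sizes, log2 CPM a prior count of 2, and FPKM a pseudocount of 0.1. The standard error is the absolute log2 fold change over the square root of F. Where 1 of 77 repeated gene names was needed, its identifier with the highest total was taken. limma 3.58.1, DESeq2 1.42.0, other filters, blocks, terms, subsets of libraries and thinning were alternatives. The study's own threshold adds a log2 fold change of 1 in either direction. Figures were drawn with matplotlib 3.10.9.

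The test was run on simulated counts of 17999 genes drawn at the depth of each library. It called 27 of 50 genes given a log2 change of 0.32, 46 of 50 given 0.58, 49 of 50 given 1 and 50 of 50 given 2, and 7 of 179 calls in all were of unchanged genes. The simulated libraries held no library sets, sexes or litters, so these shares say nothing about the mixing of those with genotype.

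The members, lists and alternatives were chosen with earlier results of these data known. Named were all members, each called gene of a list or else that with the smallest p (1 gene under this rule is not reported here), and the 3 genes most like each member among those of at least 1 CPM. Of 10 erythroid markers 9 were in the table and 6 tested. Marker lists of choroid plexus, meninges, microglia, astrocytes, neurons, oligodendrocyte precursors and pituitary are given with the closing observations. Pups are separate animals, so the p-values rest on the spread between libraries of a genotype. That spread mixes animals, library sets and litters. Litters are not named in the labels, and pups of the same litter may not be independent.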

Additional observations from a re-analysis of the deposited data

Results flagged for a closer look

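*Ireb2* in WT 2 was far from the other WT libraries. Its log2 CPM was 6.63 (99.0 CPM), and its distance to the next WT library was 0.718 of the whole range of the 6 WT libraries, above Dixon's critical value at 95%. Of the 10 genes in both genotypes, 20 groups were examined in this way, and chance flags about 1 in 20 groups. The log2 fold change of *Ireb2* was between 0.09 and 0.13 with each library left out in turn, and it was not called in any of those fits.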

How the results depend on the processing

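*Tfrc* kept its direction in all 30 alternatives and its call in 27. The call was lost with labelled sex as a term, in libraries labelled male alone (log2 fold change -0.26, edgeR adjusted p = 0.343) and in the set of 8 alone. Only WT 1 and WT 2 are WT libraries labelled male, and WT 1 had *Xist* at 436 CPM, so that fit is no clean comparison of males. Near-zero values changed sign: the log2 fold change of *Trf* was 0.14 in libraries labelled male alone, 0.0070 with library set as a block, 0.0058 in the set of 8, 0.012 in the set of 6, 0.012 with library set as a block plus labelled sex, and -0.20 to 0.023 with 1 library left out (positive without WT 4). That of *Fth1* was 0.013 without WT 1 and WT 6, 0.014 without *Rik* null 5 and 8, 0.0090 with library set as a block, 0.0082 in the set of 8, 0.013 in the set of 6, and -0.065 to 0.023 with 1 library left out (positive without WT 1 or WT 4). *Ftl1* was -0.018 in libraries labelled male alone. Members called lower, 1 in the chosen design, were 2 in DESeq2, 2 with at least 10 counts in every library, 0 with labelled sex as a term, 0 in libraries labelled male alone, 3 with library set as a block, 0 in the set of 8, 2 with library set as a block and labelled sex as a term (this design was chosen after seeing the data), and 1 to 2 with 1 library left out; the second was *Slc11a2* without WT 3 (log2 fold change -0.15, edgeR adjusted p = 0.0486). Members called higher were 0 throughout.

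Over all genes, 203 higher and 399 lower became 529 and 604 in DESeq2, 88 higher without a filter, 43 and 110 with labelled sex added, 1 and 6 in libraries labelled male alone, 43 and 125 without WT 1 and WT 6, 73 and 237 without *Rik* null 5 and 8, 693 and 829 with library set as a block, 4 and 42 in the set of 8, and 128 higher on thinned counts; with 1 library left out they were 78 to 340 higher and 203 to 480 lower. The other iron genes, 4 higher and 4 lower, became 7 higher in DESeq2, 2 lower without a filter, 1 and 0 with labelled sex added, 0 and 0 in libraries labelled male alone, 2 and 1 without WT 1 and WT 6, 1 lower without *Rik* null 5 and 8, 8 and 8 with library set as a block, 0 and 0 in the set of 8, 0 lower in the set of 6, 0 lower on thinned counts, 1 lower with library set as a block and labelled sex as a term, and 3 to 5 higher and 1 to 5 lower with 1 library left out. The cause of these moves was not tested.

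Libraries of both genotypes share replicate numbers 1 to 6. The deviations of same-numbered libraries had correlations of 0.195, 0.299, 0.316, -0.337, -0.110 and 0.215. They were positive for numbers 1, 2, 3 and 6, whose libraries share a library set, and negative for 4 and 5, whose libraries do not. These values cannot tell pairing from library set. Not every library correlated best with its own number, and the numbers were not taken as pairs. With the number as a replicate block *Tfrc* was -0.28 (edgeR adjusted p = 0.0246), *Fth1* 0.011, members called lower were 2 through *Slc25a37* (-0.27, adjusted p = 0.0456, range over its alternatives 0.0456 to 0.937), and other iron genes were 1 lower. Members had 104 counts (*Cp*) or more in every library; at 8 against 6 libraries about as many changes of 0.32 on the log2 scale were missed as called in simulated counts (27 of 50 called), and the members' differences were all below that.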

Other observations

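Some markers of other cell types that handle brain iron were higher in *Rik* null brains. For comparison, 1.12% of all genes tested were called higher and 2.2% lower. Of 10 markers of choroid plexus epithelium, the tissue that makes cerebrospinal fluid and is a source of *Trf*, 4 rose in *Rik* null brains and 0 fell, with a median log2 fold change of 0.37, and their sum was 502 to 638 CPM (median 538) in *Rik* null brains and 353 to 531 CPM (median 439) in WT brains. The 4 were *Folr1*, a folate receptor (log2 fold change 0.75, edgeR adjusted p = 0.00399), *Aqp1*, a water channel (0.50, adjusted p = 0.0366), *Sostdc1*, a secreted antagonist of bone morphogenetic proteins (0.47, adjusted p = 0.0113), and *Ttr*, transthyretin (0.37, adjusted p = 0.0362). Of 10 meningeal fibroblast markers 3 rose and 0 fell: *Aebp1* (0.75, edgeR adjusted p = 0.00684), *Dcn* (0.59, adjusted p = 0.00117) and *Slc22a6* (0.56, adjusted p = 0.00780). Their sum was 210 to 289 CPM in *Rik* null brains and 155 to 229 CPM in WT brains. The other 6 choroid plexus and 7 meningeal markers were not called, with log2 fold changes as low as 0.05 (*Kl*) and -0.05 (*Foxc1*).

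*Trf* and *Cp*, which choroid plexus or meninges also express, were not called in either direction. No marker was called among 10 of microglia (247 to 338 CPM in sum in *Rik* null brains, 238 to 299 CPM in WT brains), 6 of oligodendrocyte precursors, 10 of neurons or 2 tested of pituitary, with 2, 1, 2 and 0 at an unadjusted p under 0.05 in edgeR. Of 10 astrocyte markers 1 was called higher, beside 1.12% of all genes tested. The part of any of these lists in the iron genes was not tested.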
